A study of Mus musculus with 8 samples.

Results

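The transcripts described here are those of 10 cadherin genes, Cdh1, Cdh2, Cdh3, Cdh4, Cdh5, Cdh6, Cdh8, Cdh10, Cdh11 and Cdh13, taken by gene symbol from a table of 25834 genes. All 10 were found in the table and all 10 had enough reads to be tested. The family was picked because Cdh1 is lower in mice lacking SAP97, so the difference of Cdh1 between the genotypes is given as a description and not as a test. Hippocampal RNA was taken from male mice, 4 of them controls and 4 SAP97-cKO, and each mouse gave 1 library. SAP97-cKO mice were Nestin-cre+/- and SAP97 fl/fl, so that Dlg1, the gene for SAP97, was deleted in cells with a history of Nestin promoter activity, which in the brain are neural progenitors and the neurons and glia derived from them. Controls were littermates that carried the Cre alone, the floxed alleles alone or neither. The sources used here do not say which control library had which of these genotypes, and the study states an age for a harvest of brain tissue without naming the sequenced samples.

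Cadherins are calcium-dependent adhesion molecules of the cell surface that bind cadherins on the neighbouring cell. In classical cadherins the cytoplasmic tail binds p120-catenin and beta-catenin, and beta-catenin in turn binds alpha-catenin, which links the junction to actin. SAP97 is found along the lateral membrane of epithelial cells, where it is recruited to cadherin junctions. Cdh1 (E-cadherin), Cdh2 (N-cadherin), Cdh3 (P-cadherin) and Cdh4 (R-cadherin) are type I cadherins, Cdh6, Cdh8, Cdh10 and Cdh11 are type II cadherins, Cdh5 (VE-cadherin) is the cadherin of endothelial junctions, and Cdh13 (T-cadherin) is anchored by a lipid and lacks the catenin-binding tail, so it is a classical cadherin only in the loose sense. In the adult brain Cdh1 marks arachnoid barrier cells of the meninges, while Cdh2 joins synaptic membranes and type II cadherins are expressed in distinct sets of neurons.

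Libraries held between 37388177 and 37426572 counts, so depth was nearly equal in all mice. Of 16251 genes tested with edgeR's quasi-likelihood test, 46 were lower (0.283%) and 2 higher (0.0123%) in SAP97-cKO hippocampus at a false discovery rate under 0.25, the threshold of the study. Dlg1 served as the check of the labels, and its normalized counts were 3983 to 4691 in control and 2009 to 3065 in SAP97-cKO libraries. Markers of hippocampal neurons such as Prox1, of the dentate granule cells, and Wfs1, of CA1, were present in every library. The amount of choroid plexus in the dissections varied widely, with 174 to 6891 as the summed CPM (counts scaled to library size) of 10 choroid plexus genes in control and 99.4 to 2367 in SAP97-cKO libraries. In bulk tissue, fewer cells of a type and less RNA per cell cannot be told apart.

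Cdh1 (ENSMUSG00000000303) is a plus-strand gene of chromosome 8 (GRCm38), between positions 106603351 and 106670246. Its TMM-normalized counts were 82.0, 133, 106 and 127 in control libraries 1 to 4. In SAP97-cKO libraries 1 to 4 they were 26.5, 71.7, 21.3 and 15.6. The lowest control library was above the highest SAP97-cKO library, which was replicate 2, and that library stood apart from the other SAP97-cKO libraries, all of them at 26.5 counts or fewer. The libraries of the groups likewise did not overlap, with SAP97-cKO lower, in 3.47% of all genes tested, and Cdh1 was chosen on this contrast. The study had also listed Cdh1 from these same libraries. The mean in SAP97-cKO was 30.2% of the control mean, a log2 fold change of -1.72 ± 0.41 (SE, n = 4 and 4 mice). Without SAP97-cKO replicate 2 the log2 fold change was -2.40 ± 0.27 (SE), and without any other single library it was -1.84 to -1.48. The spread within the SAP97-cKO group, 76.1% of its mean, was wider than the 20.5% within the control group.

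Cdh3 (ENSMUSG00000061048) is the closest neighbour of Cdh1 in the family by position. It runs from 106510891 to 106557297 on the same strand of chromosome 8 and ends 46053 bases before Cdh1 starts. Cdh3 had 15.01, 92.7, 97.1 and 6.79 normalized counts in control libraries 1 to 4 and 13.2, 30.9, 17.2 and 5.19 in SAP97-cKO libraries 1 to 4. Control libraries 2 and 3 were high and the other 6 libraries were low, so the groups overlapped. The log2 fold change of -1.66 was close in size to that of Cdh1, but its standard error was 0.78 and the adjusted p from edgeR was 0.435. Control replicate 4, the second lowest library of all 8 for Cdh3, was the second highest for Cdh1. In SAP97-cKO, replicate 2 was highest and replicate 4 lowest for both genes.

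**Figure D1:**
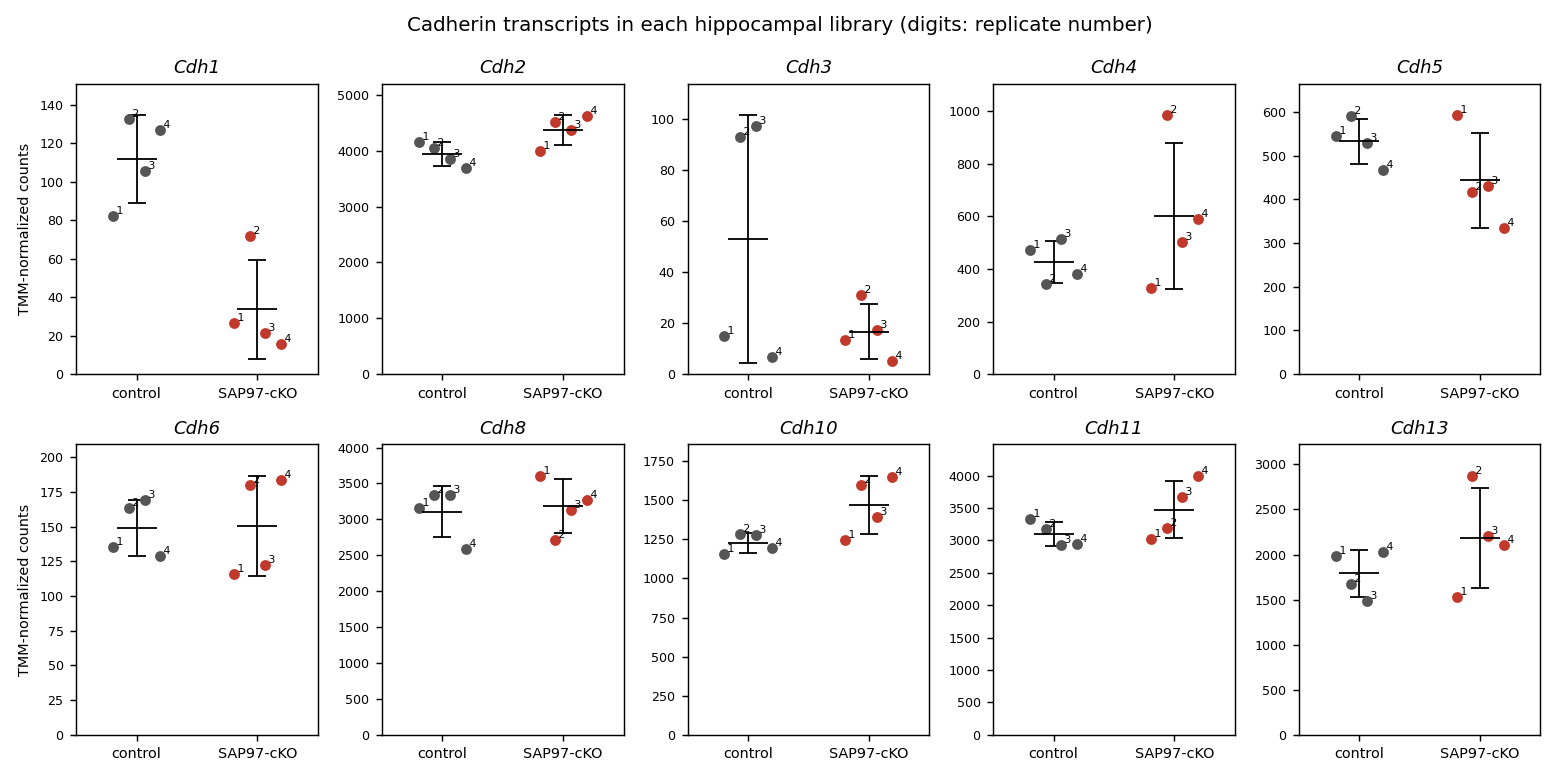
TMM-normalized counts (vertical axes, starting at 0) of the 10 cadherin genes in 4 control (grey) and 4 SAP97-cKO (red) hippocampal libraries, 1 point per mouse with its replicate number, with the group mean and SD in black. In the Cdh1 panel the control points, 82.0 to 133, lie above the SAP97-cKO points, 15.6 to 71.7, and the groups overlap in the other 9 panels.

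None of the 9 members other than Cdh1 passed the threshold (0 of 9, against 0.295% of all genes tested in either direction), and in none of them were the groups separate, as they were in 6.25% of all genes. Of these 9, 7 had log2 fold changes above 0 and 2 below, where 52.8% of all genes tested lay below 0. Their median was 0.15 beside -0.012 for all genes tested. At an unadjusted p under 0.05 edgeR placed 2 of the 9, Cdh2 and Cdh10, where 11.7% of all genes tested fell. Limma-voom also called 0 of the 9 (0.308% of all genes), and DESeq2 called 1, Cdh10 (DESeq2 adjusted p = 0.227), where it called 6.36% of all genes. Without SAP97-cKO replicate 1 edgeR called Cdh10 and Cdh5 (edgeR adjusted p = 0.190 and 0.220), where it called 4.32% of all genes.

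Among the type I cadherins, Cdh2 (ENSMUSG00000024304; chromosome 18, minus strand, 16588877 to 16809246), which joins pre- and postsynaptic membranes, had the highest counts of the family. Its normalized counts were 4160, 4053, 3860 and 3688 in control libraries 1 to 4 and 3999, 4513, 4372 and 4617 in SAP97-cKO libraries 1 to 4. In SAP97-cKO, 3 of the 4 libraries were above all controls, and replicate 1 fell among them. In edgeR the log2 ratio of the groups was 0.15 ± 0.068 (SE, edgeR adjusted p = 0.425). Cdh2 was also steady within groups, with an SD of 5.30% of the mean in controls and 6.18% in SAP97-cKO.

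Cdh4 (ENSMUSG00000000305; chromosome 2, plus strand, 179442431 to 179899373), a type I cadherin of restricted neuronal expression, had 471, 342, 514 and 381 normalized counts in control libraries 1 to 4 and 329, 986, 503 and 592 in SAP97-cKO libraries 1 to 4. SAP97-cKO replicate 2 was the highest of all 8 libraries and SAP97-cKO replicate 1 the lowest. On the log2 scale the difference was 0.50 ± 0.28 (SE, edgeR adjusted p = 0.496), and without replicate 2 it was 0.15. The library with the highest Cdh4 also had the lowest count of Prox1, 2435 against 3397 to 6466 in the other 7 libraries, and the highest count of Wfs1, 7788 against 4944 to 7363. The part of regional sampling in the value of Cdh4 was not tested.

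Cdh13 (ENSMUSG00000031841; chromosome 8, plus strand, 118283733 to 119324921) showed a like spread. It had 1983, 1671, 1480 and 2033 normalized counts in control libraries 1 to 4 and 1524, 2877, 2210 and 2104 in SAP97-cKO libraries 1 to 4. Replicate 2 was again the highest of the SAP97-cKO libraries and replicate 1 the lowest, and the groups overlapped. In edgeR the log2 ratio of the groups was 0.28 ± 0.17 (SE, edgeR adjusted p = 0.525). Leaving out SAP97-cKO replicate 2 gave 0.12, and leaving out SAP97-cKO replicate 1 gave 0.43.

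The type II cadherins Cdh8, Cdh10 and Cdh11, which are expressed in subsets of forebrain neurons, were abundant and differed little between the genotypes. Cdh10 (ENSMUSG00000022321; chromosome 15, plus strand, 18818947 to 19014236) had 1155, 1281, 1280 and 1194 normalized counts in control libraries 1 to 4 and 1244, 1599, 1394 and 1648 in SAP97-cKO libraries 1 to 4. In SAP97-cKO, 3 libraries were above all controls and replicate 1 lay within the control range. On the log2 scale the difference was 0.26 ± 0.094 (SE, edgeR adjusted p = 0.368), which is the lowest adjusted p among the 9 members other than Cdh1.

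Cdh11 (ENSMUSG00000031673; chromosome 8, minus strand, 102632095 to 102785642), which is also made by mesenchymal cells such as meningeal fibroblasts, had 3328, 3178, 2936 and 2950 normalized counts in control libraries 1 to 4 and 3029, 3199, 3665 and 4002 in SAP97-cKO libraries 1 to 4. SAP97-cKO replicates 3 and 4 were above all controls and replicates 1 and 2 were within their range. In edgeR the log2 ratio of the groups was 0.17 ± 0.093 (SE, edgeR adjusted p = 0.491), and without SAP97-cKO replicate 4 it was 0.095.

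Cdh8 (ENSMUSG00000036510; chromosome 8, minus strand, 99024471 to 99416471) had 3159, 3334, 3343 and 2591 normalized counts in control libraries 1 to 4 and 3611, 2716, 3137 and 3276 in SAP97-cKO libraries 1 to 4. The ranges lay almost on top of each other, with a log2 fold change of 0.036 ± 0.10 (SE, edgeR adjusted p = 0.906). The lowest library of each group for Cdh8, control replicate 4 and SAP97-cKO replicate 2, was also the lowest of its group for Prox1, at 3397 and 2435 normalized counts. Cdh6 (ENSMUSG00000039385; chromosome 15, minus strand, 13028701 to 13173675) was the rarest of the type II members. It had 135, 163, 169 and 129 normalized counts in control libraries 1 to 4 and 116, 180, 123 and 184 in SAP97-cKO libraries 1 to 4. These groups overlapped fully, and the log2 fold change was 0.014 ± 0.19 (SE, edgeR adjusted p = 0.980).

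Cdh5 (ENSMUSG00000031871; chromosome 8, plus strand, 104101625 to 104144511) had 545, 590, 528 and 467 normalized counts in control libraries 1 to 4 and 594, 416, 432 and 334 in SAP97-cKO libraries 1 to 4. SAP97-cKO replicate 1 was the highest of all 8 libraries and replicates 2, 3 and 4 were the lowest. The log2 fold change was -0.26 ± 0.16 (SE, edgeR adjusted p = 0.523), and leaving out SAP97-cKO replicate 1 or 4 moved it to -0.43 ± 0.12 (SE) or -0.14 ± 0.14 (SE). The summed CPM of 11 other endothelial genes, Pecam1 and Cldn5 among them, was 250 to 291 in controls and 322, 236, 244 and 192 in SAP97-cKO libraries 1 to 4. The order of the SAP97-cKO libraries was the same for Cdh5 and for this sum, and that of the controls was not. Per 1000 CPM of endothelial genes, Cdh5 stood at 49.1 to 56.3 CPM in controls and 46.5 to 49.3 CPM in SAP97-cKO. The ranges met only through SAP97-cKO replicate 1, and replicates 2, 3 and 4 (47.1, 47.3 and 46.5 CPM) were below all controls. All 11 endothelial genes had log2 fold changes below 0 (median -0.19) and 0 of 11 passed the threshold. Without SAP97-cKO replicate 1, 3 of them (Cldn5, Esam and Ly6c1) were called lower, where 4.32% of all genes were called.

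Levels were compared between the genes as CPM per kilobase of exon, which takes the length of each gene into account. In control hippocampus the order was Cdh2 (13.1 ± 0.693, SD, n = 4), Cdh8 (10.7 ± 1.22), Cdh11 (9.30 ± 0.568), Cdh13 (4.27 ± 0.625), Cdh5 (3.39 ± 0.324), Cdh10 (3.27 ± 0.169), Cdh4 (1.57 ± 0.292), Cdh1 (0.654 ± 0.134), Cdh6 (0.442 ± 0.0592) and Cdh3 (0.323 ± 0.297). The libraries of neighbours in this order overlapped for Cdh8 and Cdh11, for Cdh13 and Cdh5, for Cdh5 and Cdh10, for Cdh1 and Cdh6, and for Cdh6 and Cdh3. They were separate at the other 4 steps. In SAP97-cKO hippocampus Cdh2 (14.5 ± 0.897), Cdh8 and Cdh11 again led. Cdh1 (0.197 ± 0.1501) stood below Cdh6 (0.446 ± 0.108) there, with overlapping libraries, and Cdh10 stood above Cdh5. Cdh1 made up 1.40% ± 0.320 of the summed level of the 10 cadherins in controls and 0.386% ± 0.282 in SAP97-cKO (SD, n = 4 each), while Cdh2 made up 27.8% ± 0.507 and 28.5% ± 0.376.

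**Figure D2:**
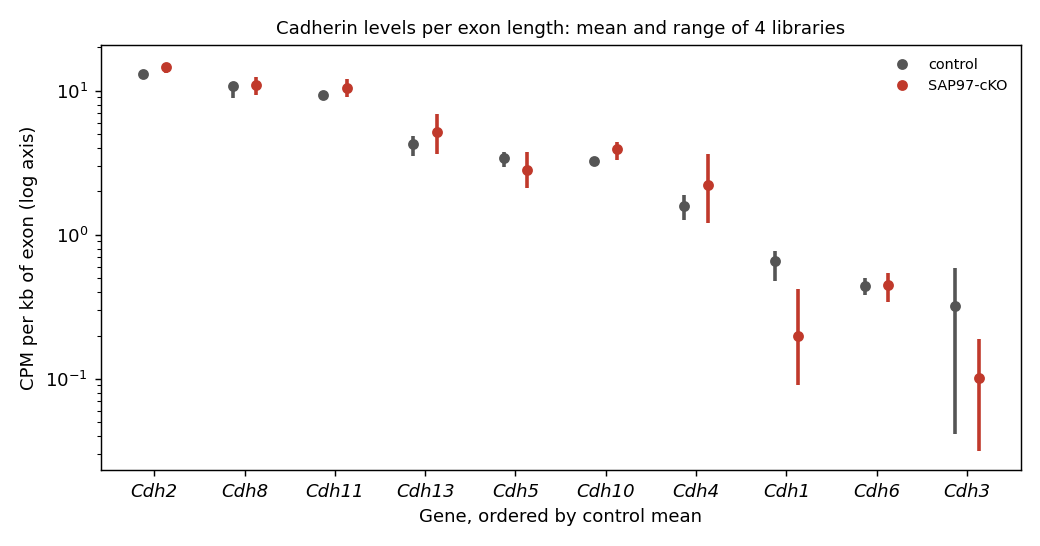
CPM per kilobase of exon (vertical, log axis) of the 10 cadherin genes, ordered by their control mean; points are means and bars run from the lowest to the highest of 4 libraries in control (grey) and SAP97-cKO (red). Cdh2 leads at 13.1 in controls and 14.5 in SAP97-cKO, and the SAP97-cKO bar of Cdh1, around 0.197, lies below its control bar, around 0.654.

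The proteins that bind cadherins inside the cell, with the nectins and afadin that lie beside them in the junction, formed a list of 19 genes. All 19 were tested, 10 had log2 fold changes above 0 and 9 below, the median was 0.00042, and 0 of 19 passed the threshold with edgeR (3 of 19 at an unadjusted p under 0.05) or with limma-voom. Beta-catenin, Ctnnb1, which links cadherins to alpha-catenin and also carries Wnt signals, was the most abundant, at 21838 ± 524 normalized counts in controls and 23085 ± 489.9 in SAP97-cKO (SD, n = 4 each). Its log2 fold change was 0.080 ± 0.060 (SE, edgeR adjusted p = 0.595). The lowest adjusted p in the list was that of Ctnnd2, the neuronal delta-catenin of the p120 group, whose normalized counts were 5763 to 6225 in controls and 6945 to 7736 in SAP97-cKO. The groups were thus apart, with SAP97-cKO higher, as they also were for Ctnnb1 and Lmo7. These made 3 of 19, where 2.78% of all genes tested were apart in this direction, and 0 of 19 were apart with SAP97-cKO lower. The log2 fold change of Ctnnd2 was 0.27 ± 0.061 (SE, edgeR adjusted p = 0.283).

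The next genes of the junction list by p were Lmo7, an afadin-binding protein, and Nectin1, a nectin of synaptic junctions, with log2 fold changes of 0.39 ± 0.11 (SE, edgeR adjusted p = 0.331) and 0.32 ± 0.10 (SE, edgeR adjusted p = 0.347). DESeq2 called Ctnnd2, Lmo7 and Nectin1 higher, where it called 6.36% of all genes. In edgeR, leaving out control replicate 1 gave 4 higher calls (these 3 and Camsap3), where 10.2% of all genes were called. Leaving out SAP97-cKO replicate 1 gave 2 higher (Ctnnd2 and Nectin1) and 1 lower (Ctnna3), where 4.32% were called. The alpha-catenins Ctnna1, found in most tissues, and Ctnna2, the neuronal form, had log2 fold changes of -0.23 ± 0.12 (SE, edgeR adjusted p = 0.458) and 0.093 ± 0.065 (SE, edgeR adjusted p = 0.569).

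**Figure D3:**
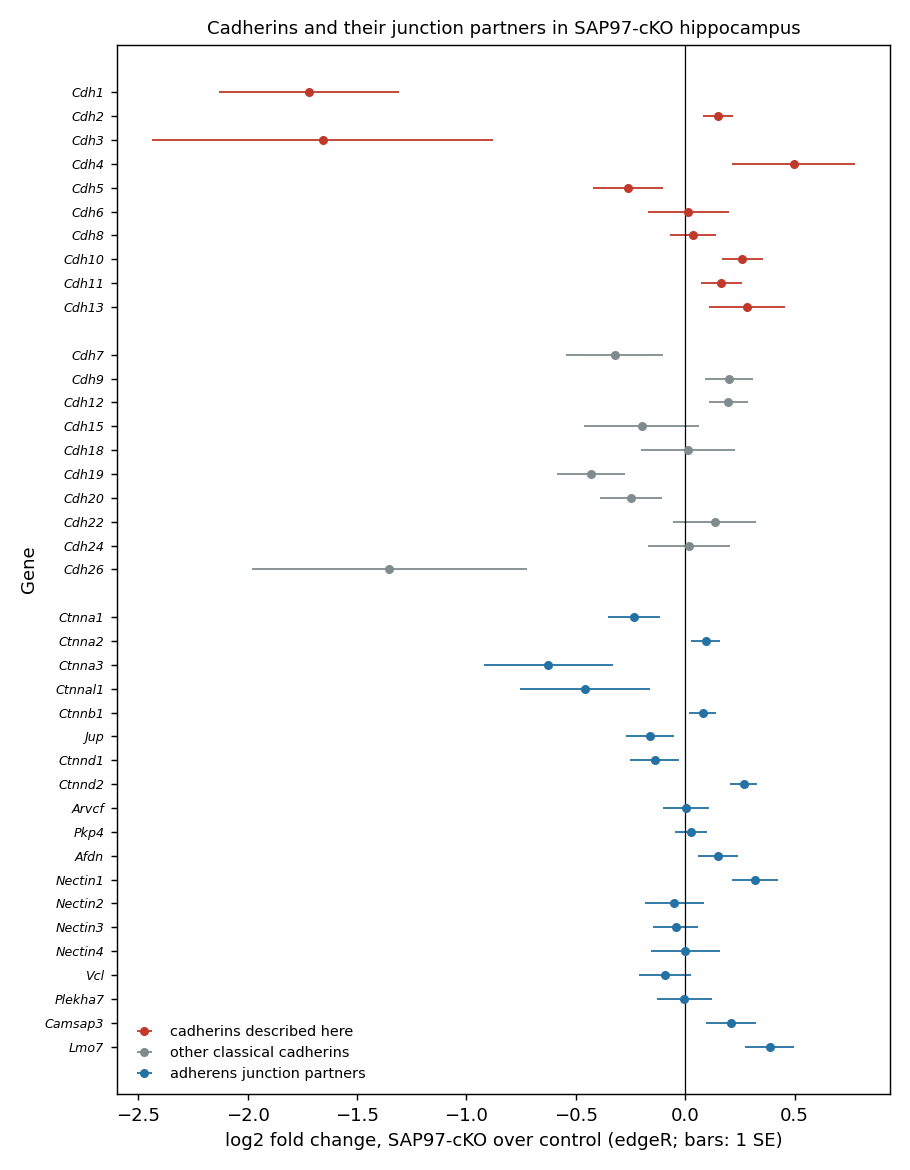
Log2 fold change of SAP97-cKO over control (horizontal axis, edgeR, bars of 1 standard error) for the 10 cadherins described here (red), 10 other classical cadherins (grey) and 19 adherens junction genes (blue). Cdh1 at -1.72, Cdh3 at -1.66 and Cdh26 at -1.35 lie far to the left, the latter pair with wide bars (Cdh26 is at -0.49 without control replicate 3), and most other genes lie close to 0.

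The 10 other classical cadherins were divided evenly, 5 below 0 and 5 above, with a median of -0.093, and 0 of 10 passed the threshold. The most abundant by counts were Cdh9, Cdh20 and Cdh22, at log2 fold changes of 0.20 ± 0.11 (SE), -0.25 ± 0.14 (SE) and 0.14 ± 0.19 (SE). Cdh26, an epithelial cadherin, had the lowest log2 fold change at -1.35 ± 0.63 (SE, edgeR adjusted p = 0.431). It had 8.004, 26.9, 97.1 and 34.0 normalized counts in control libraries 1 to 4 and 15.3, 25.9, 14.2 and 9.34 in SAP97-cKO libraries 1 to 4, so that control replicate 3 alone stood high. Without that library the log2 fold change was -0.49 ± 0.50 (SE, edgeR adjusted p = 0.750). Cdh19, a cadherin of glial cells, was at -0.43 ± 0.16 (SE, edgeR adjusted p = 0.368) and was called lower by DESeq2 and, in edgeR, without control replicate 1 (with Cdh26) or without SAP97-cKO replicate 1. These settings called 6.36%, 10.2% and 4.32% of all genes.

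Snail, Zeb and Twist factors repress the Cdh1 gene in epithelial cells that lose their junctions. These factors, together with Tcf3 and Tcf4, made a list of 8 genes. Of the 8, 0 passed the threshold in either direction, with 5 log2 fold changes above 0 and 3 below. The median was 0.083, and it was not computed without Tcf3 (0.13 ± 0.076, SE) and Tcf4 (0.10 ± 0.11, SE). Zeb2, at 9775 ± 1920 normalized counts in controls and 11279 ± 2008 in SAP97-cKO (SD, n = 4 each), had a log2 fold change of 0.21 ± 0.16 (SE, edgeR adjusted p = 0.614). Snai1 was rare, at 14.0 to 38.9 normalized counts in controls and 10.4 to 17.3 in SAP97-cKO, with a log2 fold change of -0.99 ± 0.35 (SE, edgeR adjusted p = 0.368). Without control replicate 1 it was -1.20 ± 0.31 (SE, edgeR adjusted p = 0.184), which passed the threshold, as did 10.2% of all genes in that fit. Of 12 genes for enzymes that mature or shed cadherins, 0 passed the threshold and the median was 0.025. Adam10, the main sheddase of Cdh1 and Cdh2 proteins, was at -0.025 ± 0.061 (SE, edgeR adjusted p = 0.884).

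Cdh1 was then set beside markers of arachnoid barrier cells. Which cells gave its reads was not tested. The arachnoid barrier list held 7 genes, of which 6 had log2 fold changes below 0, with a median of -0.57 beside -0.012 over all genes. Slc22a6, an organic anion transporter, was the 1 gene past the threshold and was lower, where 0.283% of all genes tested were called lower. It had 309, 364, 201 and 312 normalized counts in control libraries 1 to 4. In SAP97-cKO libraries 1 to 4 it had 96.7, 155, 93.2 and 49.8. Its log2 fold change was -1.58 ± 0.30 (SE, edgeR adjusted p = 0.201), and the study too had listed Slc22a6 from these libraries. The call was lost without control replicates 2 or 4 or without SAP97-cKO replicates 3 or 4 (adjusted p = 0.293 to 0.622 from edgeR). Dpp4, a peptidase of the arachnoid barrier, was at -0.90 ± 0.38 (SE, edgeR adjusted p = 0.408), and Slc47a1, a cation exporter, was at -0.77 ± 0.28 (SE, edgeR adjusted p = 0.371).

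Most reads of the arachnoid list came from Cldn11, which oligodendrocytes also make in quantity. Without Cldn11 the summed CPM of the other 6 genes was 51.1, 61.2, 43.9 and 59.3 in control libraries 1 to 4 and 42.0, 48.3, 36.6 and 26.6 in SAP97-cKO libraries 1 to 4. Within SAP97-cKO the libraries had the same order for this sum as for Cdh1, with replicate 2 highest and replicate 4 lowest. Within controls, replicates 2 and 4 were the highest for both. The groups overlapped in the sum and not in Cdh1. Of the 6 genes, 1 (Slc22a6) had its groups apart, where 3.47% of all genes tested were apart with SAP97-cKO lower. The most abundant of the 6 were Abcg2 and Slc22a8, so the sum rests mostly on them, and their groups overlapped. Abcg2 had 774 ± 44.5 normalized counts in controls and 672 ± 88.7 in SAP97-cKO (SD, n = 4 each). Slc22a8 had 613 ± 108 and 414 ± 128. The part of arachnoid cells in the Cdh1 difference was not tested.

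Markers of meningeal fibroblasts, which lie beside the arachnoid barrier cells, were counted next. Of 13 genes, 5 passed the threshold, all lower (Ogn, Col1a2, Col3a1, Aldh1a2 and Slc6a13), where 0.283% of all genes tested were called lower. The median log2 fold change was -1.14. The other 8 did not pass, and Dcn, a proteoglycan gene and the second most abundant of the list, was at 2086 ± 880 normalized counts in controls and 2076 ± 1010 in SAP97-cKO (SD, n = 4 each, log2 fold change -0.0076). The study listed the 5 genes from the same libraries, so they are not independent evidence. It printed the fold change of Ogn with a sign opposite to that of the others. Without single libraries the number past the threshold ran from 0 to 11, and it was 0 when control replicate 2, SAP97-cKO replicate 3 or SAP97-cKO replicate 4 was left out. It was 11 without control replicate 1, with DESeq2 and without the filter on low counts. These settings called 10.2% and 6.36% of all genes and, without the filter, 104 of 25834. Where the number was 0, 0 of all genes tested passed. The summed CPM of the list was 334, 558, 326 and 310 in control libraries 1 to 4 and 189, 293, 255 and 178 in SAP97-cKO libraries 1 to 4. These groups did not overlap, unlike those of the arachnoid sum, and SAP97-cKO replicate 2 was again the highest of its group. Igf2, the most abundant gene of the list, had 3758, 11045, 6223 and 2890 normalized counts in control libraries 1 to 4. In SAP97-cKO libraries 1 to 4 it had 3441, 4806, 3997 and 1667, so its groups overlapped. Within each group its libraries had the same order as the choroid plexus sum given below. The sum was not recomputed without Igf2. Per 1000 CPM of the 13 genes Cdh1 stood at 6.35 to 10.97 CPM in controls and 2.23 to 6.54 CPM in SAP97-cKO. These ranges overlapped through SAP97-cKO replicate 2.

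Genes of the choroid plexus, an epithelium that joins the hippocampal fimbria, had an order across libraries close to that of Cdh3. Summed over 10 genes, of which transthyretin (Ttr) gave most reads, they stood at 1213, 6891, 3849 and 174 CPM in control libraries 1 to 4 and 574, 2367, 1361 and 99.4 CPM in SAP97-cKO libraries 1 to 4. The SAP97-cKO libraries had the same order for Cdh3 as for this sum, and in both groups replicate 4 was lowest in both. Per 1000 CPM of choroid plexus genes Cdh3 stood at 0.331 to 1.04 CPM in controls and 0.338 to 1.40 CPM in SAP97-cKO. Control replicate 4, which had the lowest choroid plexus sum of its group, had 127 counts of Cdh1, the second highest of all libraries. Control replicates 1 to 3 had the same order for Cdh1 as for the sum, and in SAP97-cKO replicate 2 was highest and replicate 4 lowest for both. All 10 choroid plexus genes had log2 fold changes below 0 (median -1.49), and 0 of 10 passed the threshold. Without control replicate 1, 1 passed (Otx2), where 10.2% of all genes were called. The part of dissected choroid plexus in the values of Cdh3 and Cdh1 was not tested.

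**Figure D4:**
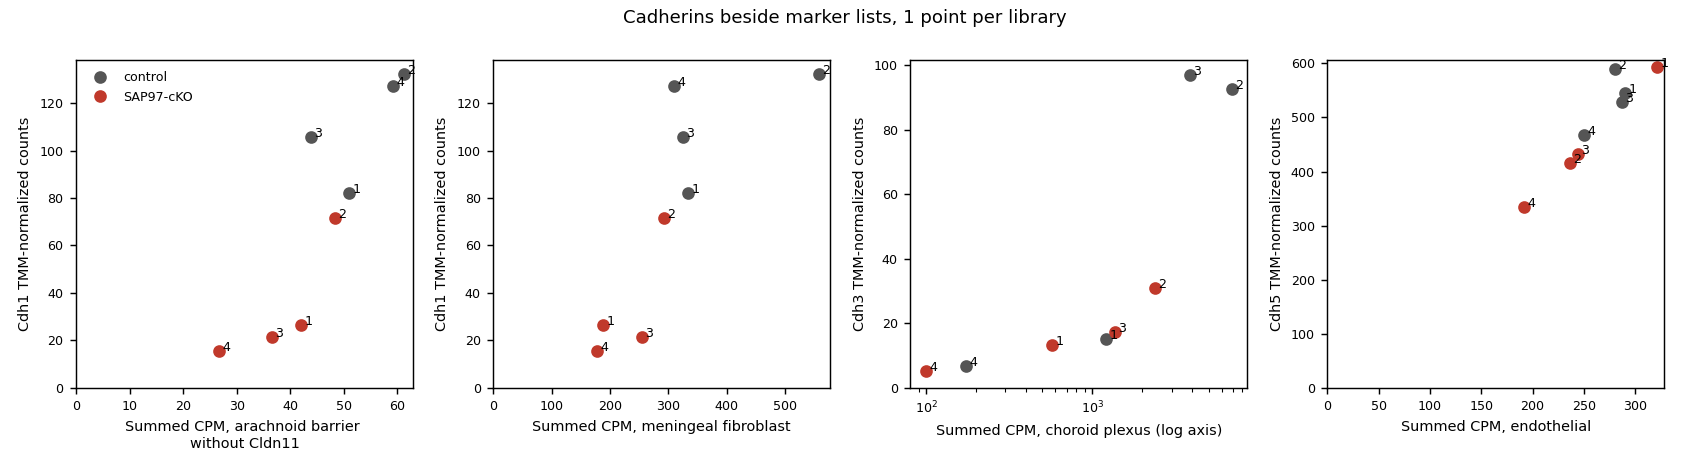
TMM-normalized counts of Cdh1, Cdh3 and Cdh5 (vertical axes) against the summed CPM of marker genes (horizontal axes): Cdh1 against arachnoid barrier genes without Cldn11 and against meningeal fibroblast genes, Cdh3 against choroid plexus genes (log axis) and Cdh5 against endothelial genes, in 4 control (grey) and 4 SAP97-cKO (red) libraries, labelled by replicate number. Cdh5 rises with the endothelial sum, from 334 counts at 192 CPM to 594 counts at 322 CPM, with control replicate 2 (590 counts at 280 CPM) above this trend. The 4 SAP97-cKO points of Cdh1, up to 71.7 counts, lie lower than the control points.

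Genes typical of epithelia showed the same direction with wide errors. Of 12 genes, 7 had enough reads to be tested, all 7 were below 0 with a median of -0.59, and 0 of 7 passed the threshold. Krt18, a keratin, had 77.0, 310, 183 and 70.9 normalized counts in control libraries 1 to 4 and 26.5, 132, 98.3 and 11.4 in SAP97-cKO libraries 1 to 4. The tight junction gene Cldn1 had 175, 830, 448 and 188 normalized counts in control libraries 1 to 4 and 160, 313, 140 and 41.5 in SAP97-cKO libraries 1 to 4. For both genes control replicate 2 was highest and the groups overlapped. Epcam was rare, with 18.7 ± 6.69 normalized counts in controls and 17.2 ± 6.23 in SAP97-cKO (SD, n = 4 each).

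The remaining marker lists gave the following counts. In ependymal (6 genes), mural (8 genes) and oligodendrocyte (6 genes) lists, all genes were below 0, with medians of -0.62, -0.24 and -0.47, and 0 passed the threshold. Without control replicate 1, 5 ependymal, 2 mural and 6 oligodendrocyte genes were called lower, where 10.2% of all genes were called. Without SAP97-cKO replicate 1 the counts were 0, 3 and 6, where 4.32% were called. DESeq2, which called 6.36% of all genes, called 2, 3 and 1 lower. In microglia (6 genes), astrocyte (6 genes) and hippocampal neuron (10 genes) lists, medians were 0.024, 0.072 and 0.11, and 0 passed it. Aqp4, the water channel of astrocytes, was called higher in 5 alternatives (DESeq2, no filter, and without control replicate 1, control replicate 3 or SAP97-cKO replicate 1). Of the neuron list, DESeq2 called 3 higher (Camk2a, Slc17a7 and Wfs1), as did edgeR without control replicate 1 (Rbfox3, Slc17a7 and Wfs1), and Slc17a7 was called without SAP97-cKO replicate 1. The summed CPM of the neuron list was 9104 to 10042 in controls and 9697 to 11432 in SAP97-cKO. SAP97-cKO replicate 4, the highest of the 8 libraries for this sum, was also the highest for Cdh2, Cdh10 and Cdh11. SAP97-cKO replicate 1, at 10597 also above all controls for the sum, was the lowest of its group for these cadherins, at 3999, 1244 and 3029 normalized counts. The part of neuronal content in their values was not tested.

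The genes most like Cdh1 were sought over the 8 libraries on log2 CPM values from which the mean of each genotype had been removed. The 5 closest of the tested genes were Fam131b, Arhgap25, Tyro3, Cux2 and Ipcef1, with Pearson's r of 0.986, 0.983, 0.982, 0.982 and 0.981 and Spearman's rho of 0.976, 0.976, 0.976, 0.976 and 0.881. These coefficients are the top of 16251 genes compared over 8 libraries, all points share the same mice, and they are given as a description only. Among the arachnoid barrier genes, Slc47a1, Dpp4, Slc22a6 and Slc22a8 had r of 0.848, 0.811, 0.8003 and 0.785 with Cdh1, at ranks 243, 354, 394 and 460. The other 3 of the 7 were Klf5 (r of 0.731, rank 726, with a log2 fold change of 0.19), Abcg2 (0.665, rank 1116) and Cldn11 (0.293, rank 4666). In the meningeal fibroblast list r ran from -0.218 (Lum) to 0.795 (Fmod, rank 425). The epithelial list ran from -0.143 (Ocln) to 0.734 (Cldn1, rank 709), and the choroid plexus list from 0.354 (Kl) to 0.616 (Kcnj13). SAP97-cKO replicate 2 stood apart for Cdh1, at 71.7 normalized counts against 15.6 to 26.5, and the coefficients were not recomputed without it. Cdh3 had r of 0.435, Cdh5 had r of 0.159 and Cdh11 had r of -0.637.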

How the data were processed

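RNA-seq covered 8 hippocampi of male mice, 4 per genotype. The authors aligned reads with STAR 2.5.3a to mm10 (GRCm38.p5, in the submitters' processing notes), and their PORT pipeline removed ribosomal and mitochondrial reads, brought libraries to 1 shared depth by resampling, and counted reads on Ensembl genes. The deposited values are whole-number counts per gene. Whether counting used strand is not given in the sources used here. Overlapping annotated genes shared at most 23 exonic bases with a member (Cdh8). Columns with a limma-voom p-value, its q-value and a log2 fold change, which the authors deposited beside the counts, were not used.

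Genes were kept with filterByExpr (minimum count 10, minimum total 15), leaving 16251 of 25834. Libraries were scaled by TMM (factors 0.964 to 1.03) and genotypes compared with edgeR 4.0.16 under R 4.3.3. The p-values of all tested genes were adjusted together (Benjamini-Hochberg), calls were made at an FDR of 0.25, and the test was run on simulated counts first. A standard error is the absolute log2 fold change divided by the square root of F. Normalized counts are counts at the mean effective library size. Positions and exon lengths are those of GENCODE M21 (GRCm38), which held 25696 of the identifiers; 5 junction genes listed under older symbols were matched by identifier. Plots were drawn with matplotlib 3.10.9.

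Genes named are the members, Dlg1, list genes past the threshold, some but not all of the most abundant genes of the lists and the 5 genes most like Cdh1. Other list genes named were singled out after their values were seen. The members and lists were chosen with earlier results of these data known. Alternatives were limma-voom (limma 3.58.1), DESeq2 1.42.0, its size factors in edgeR, no filter, a minimum of 10 counts in all libraries, a block for replicate number, and each library left out. Nothing says that replicate numbers mark a litter or day, and p-values measure the spread between these mice.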

Additional observations from a re-analysis of the deposited data

How the results depend on the processing

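The count of all genes past the threshold, 48 with edgeR, was 50 with limma-voom, 1033 with DESeq2, 104 without the filter on low counts and 256 with the replicate block, and it ran from 0 to 1675 with single libraries left out. It was 0 without control replicate 2, SAP97-cKO replicate 3 or SAP97-cKO replicate 4, where 1403, 1259 and 1167 genes had an unadjusted p under 0.05. Of the 10 cadherins, 0 passed with edgeR (3 at an unadjusted p under 0.05, where 11.7% of all genes fell), 1 with limma-voom, 1 without the filter, 1 with the replicate block and 2 with DESeq2, and 0 to 3 with single libraries left out. These counts hold Cdh1, which was chosen on this contrast, so they are no test of it. It was joined by Cdh10 in DESeq2 and by Cdh5 and Cdh10 without SAP97-cKO replicate 1. Dlg1 missed the threshold without control replicate 2, SAP97-cKO replicate 3 or SAP97-cKO replicate 4 (edgeR adjusted p = 0.346 to 0.524). Among the 9 others the count was 1 with DESeq2 and 0 to 2 with single libraries left out. Of the 19 junction genes 3 passed with DESeq2 and 0 to 4 with single libraries left out. DESeq2 called 4 arachnoid barrier genes lower, where it called 6.36% of all genes, against 1 with edgeR, where 0.295% were called.

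Values near 0 turned sign. Cdh6 was at -0.0078 with limma-voom and at -0.0044 with the replicate block. With single libraries left out Cdh6 ran from -0.090 to 0.13, below 0 without control replicate 1 (-0.030), control replicate 4 (-0.048), SAP97-cKO replicate 2 (-0.083) or SAP97-cKO replicate 4 (-0.090). Cdh8 ran from -0.041 to 0.11 (-0.041 without control replicate 4, -0.022 without SAP97-cKO replicate 1), Cdh22 from -0.12 to 0.25 and Adam10 from -0.055 to 0.0016. The cause of these moves was not tested. Cdh3 was not tested where 10 counts were required in every library. Same-numbered libraries had correlations of -0.062, 0.201, 0.0898 and 0.259 of their deviations. Since 2 of the 4 were not over 0.1 and no label ties the numbers, they were not taken to pair the mice, although 3 of the 4 control libraries were most like their own number. The block gave 9 lower calls in the choroid plexus list and 3 in the epithelial list, against 0 in each without it, and 10 in the meningeal list against 5. Over all 16251 genes the block called 234 lower, against 46 without it. Alternatives for list genes other than the junction list were added after the data were seen. Cdh1 and Cdh3 had 589 and 281 reads over 8 libraries.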
